A study of Mus musculus with 13 samples.

Results

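Ketone body use was followed through 4 genes, Bdh1, Oxct1, Acat1 and Slc16a1, found by symbol among the 55471 Ensembl genes of the deposited count table. Each symbol matched 1 gene, and all 4 were among the 15000 genes that passed the filter on low counts. Whole mouse hearts were profiled by bulk poly(A) RNA-seq in 13 libraries of 3 groups. There were 4 libraries of R502W mice given mavacamten at 2.5 mg/kg/day in their water for 21 weeks, 4 of untreated R502W mice and 5 of untreated wild-type (WT) mice. These groups are called R502W mavacamten, R502W control and WT control. R502W names a substitution in cMyBP-C, a sarcomere protein of the thick filament whose gene is Mybpc3. The sources used here do not give the sex of the mice, the number of lines, or whether a single copy or both copies of the gene carried it. The design text put the mice at 24 weeks, whereas the extraction protocol spoke of hearts of 3 and 18 weeks. Mavacamten inhibits the myosin motor of heart muscle.

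Ketone bodies are made in the liver from fatty acids and carried by the blood to organs that burn them, the heart among them. The monocarboxylate transporter MCT1, encoded by Slc16a1, moves ketone bodies, lactate and pyruvate across the cell membrane together with a proton. In the mitochondrion, 3-hydroxybutyrate dehydrogenase (Bdh1) oxidises 3-hydroxybutyrate to acetoacetate. Succinyl-CoA:3-oxoacid CoA transferase (Oxct1) hands acetoacetate a CoA taken from succinyl-CoA, the step that the liver lacks. Mitochondrial acetoacetyl-CoA thiolase (Acat1) then splits the product into acetyl-CoA, which enters the tricarboxylic acid cycle. Hypertrophied and failing hearts have been described as using more ketone bodies.

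Libraries held between 15350622 and 19361103 expected counts. Levels are given as CPM, the usual scaling of counts to library size, here with edgeR's TMM factors, and values per kb divide CPM by the exonic length of the gene. A change is a gene with an adjusted p under 0.05 in edgeR's quasi-likelihood test over all genes. The 8 cardiomyocyte markers checked were all measured and summed to between 39710 and 76460 CPM in every library. Libraries differed in other tissues and in the atrial gene Bmp10. Bmp10 ranged from 6.23 to 639.1 CPM in R502W mavacamten, 1.57 to 671.6 CPM in R502W control and 8.33 to 631.2 CPM in WT control. The 5 atrial markers together summed to between 2988 and 8008 CPM. WT control replicate 2 held 276.9 CPM of 6 T cell and thymus genes, WT control replicate 3 held 556.4 CPM of 3 airway genes, and 6 fat cell genes summed to as much as 642.3 CPM. Fewer cells of a type and less RNA per cell cannot be told apart in such bulk samples. Separate mice are not stated for the libraries, and p-values therefore reflect library-to-library spread only.

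In outline, R502W control hearts held 2.28-fold more Bdh1 transcript and 1.36-fold more Slc16a1 transcript than WT control hearts, while Oxct1 and Acat1 did not pass the test. Thus 2 of the 4 genes rose and none fell, where 12.4% of all genes tested changed in either direction, 8.63% rose and 3.75% fell. Mavacamten-treated R502W hearts held 2.00-fold more Bdh1 and 1.31-fold more Slc16a1 than WT control hearts, where 8.21% of all genes changed, 5.93% rose and 2.29% fell. Between mavacamten and control within R502W none of the 4 genes passed, and 0% of all genes did. Among tested genes with a known length, longer genes tended to have higher log2 fold changes over WT control. The rank correlation with exonic length was 0.34 for R502W control and 0.36 for R502W mavacamten, each over WT control. For mavacamten over control within R502W it was -0.015. The cause of this length trend was not tested.

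The promoters of the 2 genes that rose are shown because they are the windows in which shared regulatory letters were looked for. The windows are RefSeq's for GRCm38.p6, with 250 bases before and 50 after an annotated start. Bdh1 has 2 such windows on the + strand, chr16:31422047-31422346 and chr16:31428503-31428802, and Slc16a1 has a single one on the + strand, chr3:104638414-104638713. Capitals mark any match on either strand to AGGTCA (a core site of nuclear receptors), TCAAGGTCA (an extended core site, which contains AGGTCA), AGGTCANAGGTCA (a direct repeat of AGGTCA) or CACGTG (the E-box bound by helix-loop-helix factors such as MYC).
Bdh1, first start: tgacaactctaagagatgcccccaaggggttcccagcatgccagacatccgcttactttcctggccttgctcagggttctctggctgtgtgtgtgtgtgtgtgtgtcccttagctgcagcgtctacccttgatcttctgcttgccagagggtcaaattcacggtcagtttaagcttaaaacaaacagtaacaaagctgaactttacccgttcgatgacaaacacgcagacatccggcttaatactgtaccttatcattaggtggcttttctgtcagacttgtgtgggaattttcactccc
Bdh1, second start: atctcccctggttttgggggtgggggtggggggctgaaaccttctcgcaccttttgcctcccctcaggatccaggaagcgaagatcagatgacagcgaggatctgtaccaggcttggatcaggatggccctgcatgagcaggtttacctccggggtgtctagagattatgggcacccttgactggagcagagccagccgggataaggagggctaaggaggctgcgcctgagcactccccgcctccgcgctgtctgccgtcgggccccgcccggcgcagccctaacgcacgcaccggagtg
Slc16a1: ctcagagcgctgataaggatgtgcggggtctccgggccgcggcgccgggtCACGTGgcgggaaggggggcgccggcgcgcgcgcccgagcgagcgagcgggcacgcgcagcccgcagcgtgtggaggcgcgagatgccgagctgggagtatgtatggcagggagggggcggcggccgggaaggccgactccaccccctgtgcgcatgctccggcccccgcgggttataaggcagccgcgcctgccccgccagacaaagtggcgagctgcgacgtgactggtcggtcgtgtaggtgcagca

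The Slc16a1 window was rich in G and C (73.7%, with 42 CpG pairs), the first Bdh1 window was not (48.3%, with 7), and the second Bdh1 window lay between them (63.7%, with 17). Over the 32851 windows of the same length the medians were 52.7% and 7 CpG pairs. CACGTG occurred once in the Slc16a1 window and in 7.15% of all windows. None of the other motifs was found in these 3 windows. AGGTCA was present in 16.3% of all windows, TCAAGGTCA in 0.423% and the direct repeat in 0.0396%. Of the 4 genes 3 had windows in the table, and that of Oxct1 (55.3% G and C) held no match to any of the 4 motifs.

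All 4 genes were well expressed in every library. Per kb of exon, Oxct1 was the highest in each group, followed by Acat1, Slc16a1 and Bdh1, and the ranges of neighbouring genes did not overlap within a group. Over all libraries Oxct1 averaged 240.9 CPM per kb, Acat1 113.3, Slc16a1 42.7 and Bdh1 22.4, which placed them at the 99.1, 98.1, 95.2 and 91.0 percentiles of 14990 tested genes with a known length. The Bdh1 level per kb was 0.104 ± 0.028 of the Oxct1 level in R502W mavacamten hearts, 0.116 ± 0.014 in R502W control hearts and 0.0616 ± 0.016 in WT control hearts (SD, n = 4, 4 and 5).

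**Figure D1:**
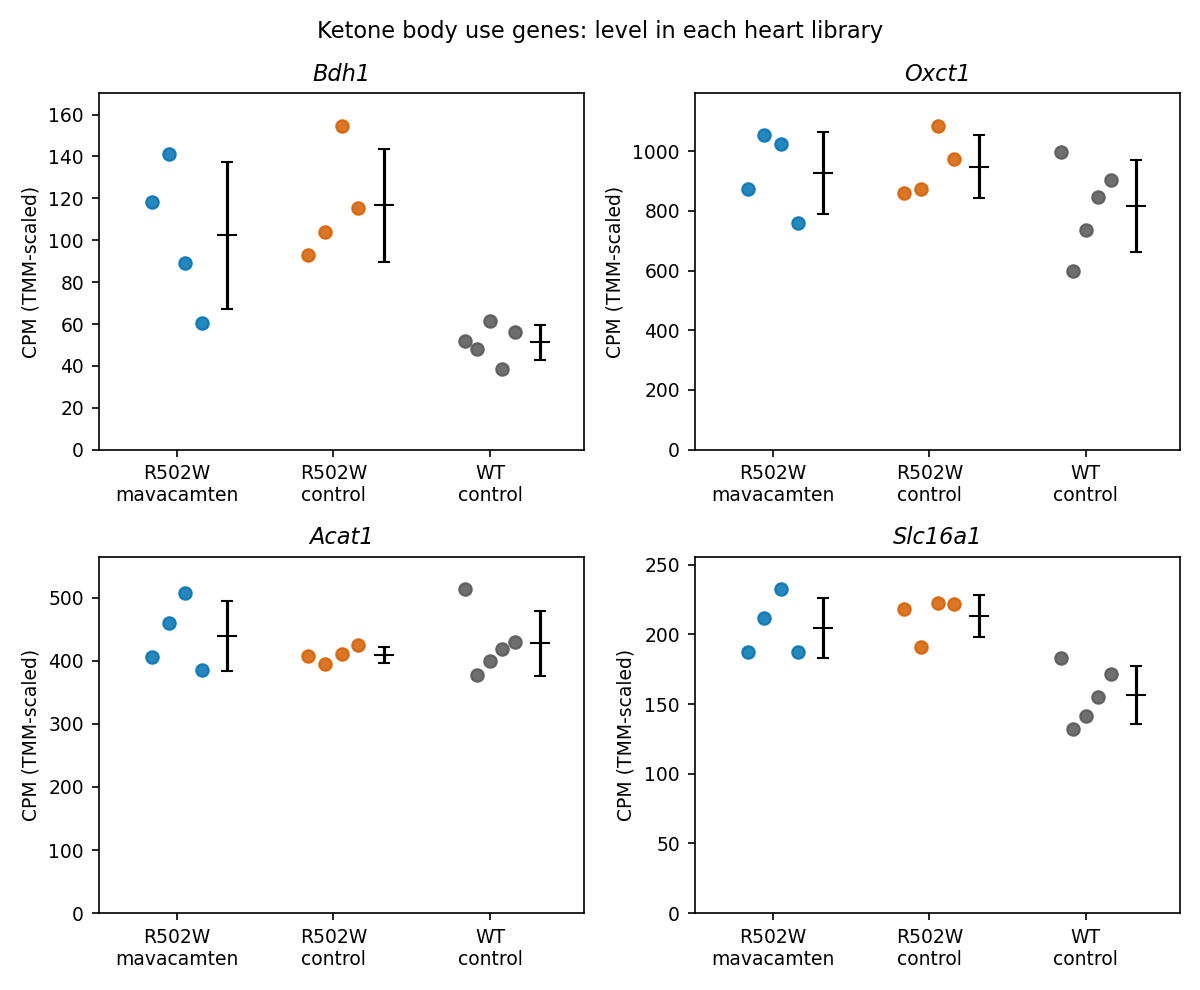
Level of each ketone body use gene in CPM on TMM-scaled library sizes (vertical axes from 0) in the 3 groups; each point is 1 library and the bar beside it is the mean with its SD. All 4 R502W control libraries lie above all 5 WT control libraries for Bdh1 and Slc16a1, and the groups overlap for Oxct1 and Acat1.

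Slc16a1, the transporter (ENSMUSG00000032902, chromosome 3, 104638668 to 104658462 on the + strand, GRCm38, protein coding), was compared first as the entry step. It stood at 187.3, 211.6, 232.2 and 187.0 CPM in R502W mavacamten replicates 1 to 4, at 218.2, 190.8, 222.1 and 222.0 CPM in R502W control replicates 1 to 4, and at 182.9, 131.8, 141.6, 154.8 and 171.6 CPM in WT control replicates 1 to 5. Every R502W library of either treatment lay above the highest WT library. In R502W control against WT control hearts the log2 fold change was 0.45 ± 0.10 (SE; edgeR adjusted p = 0.0154), from 213 ± 15.1 CPM (SD, n = 4) against 157 ± 21.0 CPM (n = 5). Groups that did not overlap were found in this direction for 12.3% of all genes and in the other for 5.45%. The call was close to its threshold. It ended without R502W control replicate 3 (0.43, edgeR adjusted p = 0.0515), without the 4 libraries above 50 CPM of the fat hormone gene Adipoq (0.29, adjusted p = 0.112) and without the 3 libraries under 50 CPM of the atrial gene Bmp10 (0.37, adjusted p = 0.126).

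The gap to WT was of similar size in treated hearts. R502W mavacamten hearts averaged 205 ± 21.7 CPM of Slc16a1 (SD, n = 4) against 157 ± 21.0 CPM in WT control hearts (n = 5), or 0.39 ± 0.10 on the log2 scale (edgeR adjusted p = 0.039). No library overlapped, as for 8.54% of all genes in this direction and 3.79% in the other. This call ended without any 1 of 11 libraries, every one except WT control replicates 1 and 5, with 0.30 to 0.43 as the range of its value and adjusted p-values up to 0.156. Treated against untreated R502W hearts differed by -0.06 ± 0.11 (edgeR adjusted p = 1.00), with a 95% interval of -0.30 to 0.18. Red blood cells also carry this transporter. The 6 erythroid markers summed to between 2953 and 4684 CPM in R502W mavacamten, 4229 and 5218 CPM in R502W control and 3175 and 6600 CPM in WT control hearts, so their ranges overlapped, and none of the 6 changed in any comparison.

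Bdh1, the first enzyme of the pathway (ENSMUSG00000046598, chromosome 16, 31422280 to 31458901 on the + strand, GRCm38, protein coding), showed the widest difference of the 4 genes. Its levels were 118.3, 141.1, 89.3 and 60.7 CPM in R502W mavacamten replicates 1 to 4, 92.8, 104.0, 154.6 and 115.4 CPM in R502W control replicates 1 to 4, and 51.7, 48.3, 61.2, 38.7 and 56.0 CPM in WT control replicates 1 to 5. Every untreated R502W heart lay above every WT heart, as for 12.3% of all genes in this direction and 5.45% in the other. Of the treated hearts, replicates 1 to 3 lay above all WT hearts and replicate 4 just below the highest of them. R502W control hearts averaged 117 ± 26.9 CPM (SD, n = 4) against 51.2 ± 8.48 CPM in WT control hearts (n = 5), or 1.19 ± 0.22 on the log2 scale (edgeR adjusted p = 0.00433). By size this was the 113th of the 1294 genes that rose. Leaving out any 1 library did not end the call (1.03 to 1.29), nor did any of the 13 other settings tried (1.13 to 1.33), including the exact permutation test (two-sided p = 0.0079, the smallest it allows here).

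In R502W mavacamten hearts Bdh1 averaged 102 ± 34.9 CPM (SD, n = 4) against 51.2 ± 8.48 CPM in WT control hearts (n = 5), which is 1.00 ± 0.22 on the log2 scale (edgeR adjusted p = 0.0171). This call ended without R502W mavacamten replicate 1 (0.89, adjusted p = 0.0519) or replicate 2 (0.79, adjusted p = 0.0674). It also ended when only the 2 groups were fitted (0.97, adjusted p = 0.056) or the 3 libraries low in Bmp10 were left out (1.12, adjusted p = 0.0768). Treated against untreated R502W hearts differed by -0.19 ± 0.23 (edgeR adjusted p = 1.00), with a 95% interval of -0.68 to 0.30. Within groups Bdh1 also varied most in the R502W libraries, with a coefficient of variation of 34.1% in R502W mavacamten, 23.0% in R502W control and 16.6% in WT control.

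Oxct1, the CoA transferase (ENSMUSG00000022186, chromosome 15, 4026383 to 4155344 on the + strand, GRCm38, protein coding), had the highest level and no called difference. It stood at 872.2, 1055, 1025 and 760.1 CPM in R502W mavacamten replicates 1 to 4, at 859.9, 873.4, 1085 and 974.7 CPM in R502W control replicates 1 to 4, and at 997, 599.7, 735, 845.6 and 905 CPM in WT control replicates 1 to 5. The groups overlapped, and the lowest library of all was WT control replicate 2, the one with T cell and thymus genes. R502W control hearts averaged 948 ± 105 CPM (SD, n = 4) against 816 ± 154 CPM in WT control hearts (n = 5), or 0.22 ± 0.14 on the log2 scale (edgeR adjusted p = 0.344, 95% interval -0.09 to 0.53). R502W mavacamten hearts averaged 928 ± 138 CPM, which gave 0.18 ± 0.14 over WT control (edgeR adjusted p = 0.449, interval -0.13 to 0.50) and -0.03 ± 0.15 over R502W control (edgeR adjusted p = 1.00, interval -0.36 to 0.30).

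Acat1, the thiolase (ENSMUSG00000032047, chromosome 9, 53580522 to 53610382 on the - strand, GRCm38, protein coding), had overlapping levels in all groups. It stood at 405.3, 460.1, 507.1 and 385.0 CPM in R502W mavacamten replicates 1 to 4, at 406.9, 394.8, 410.7 and 425.0 CPM in R502W control replicates 1 to 4, and at 513.2, 377.5, 399.6, 419.2 and 429.6 CPM in WT control replicates 1 to 5. All 4 R502W control libraries fell inside the range of the WT libraries. Their mean was 409 ± 12.4 CPM (SD, n = 4) against 428 ± 51.7 CPM in WT control hearts (n = 5), or -0.06 ± 0.10 on the log2 scale (edgeR adjusted p = 0.718, 95% interval -0.28 to 0.15). R502W mavacamten hearts averaged 439 ± 55.2 CPM, or 0.04 ± 0.10 over WT control (edgeR adjusted p = 0.847, interval -0.18 to 0.26) and 0.10 ± 0.11 over R502W control (edgeR adjusted p = 1.00, interval -0.13 to 0.33). In the comparisons with WT control, the upper bounds of these intervals lie well below the rise of Bdh1.

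**Figure D2:**
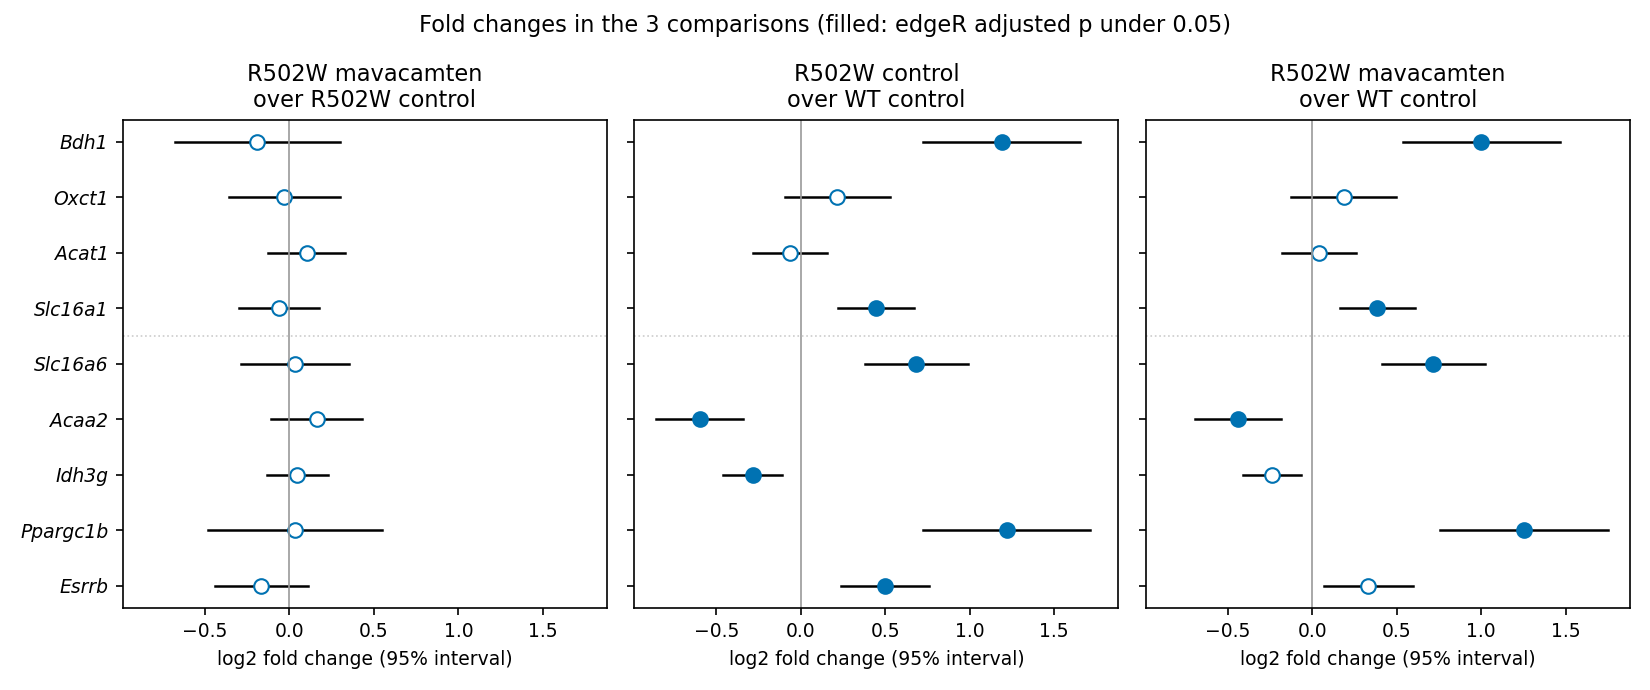
Log2 fold change (horizontal axis, first-named group over the second) with its 95% interval for the 4 ketone body use genes, above the dotted line, and for 5 other genes of the pathway. Filled points passed edgeR's adjusted p threshold of 0.05. No point is filled for mavacamten over control within R502W, and for R502W control over WT control Bdh1 lies at 1.19 and Acaa2 at -0.60.

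Among WT control libraries Oxct1, Acat1 and Slc16a1 had the same order, highest in replicate 1, then 5, 4, 3 and 2. The summed CPM of the 8 cardiomyocyte markers had that order too, from 58950 CPM in WT control replicate 1 to 39710 CPM in replicate 2. Bdh1 was instead highest in WT control replicate 3 and lowest in replicate 4. Among R502W control libraries replicate 3 was the highest for Bdh1, Oxct1 and Slc16a1, whereas Acat1 was highest in replicate 4. Among treated hearts, replicate 4 was the lowest for all 4 genes, with 60.7 CPM of Bdh1 and 563.9 CPM of the 5 endothelial markers against 740.6 to 787.0 CPM of those markers in the other 3.

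**Figure D3:**
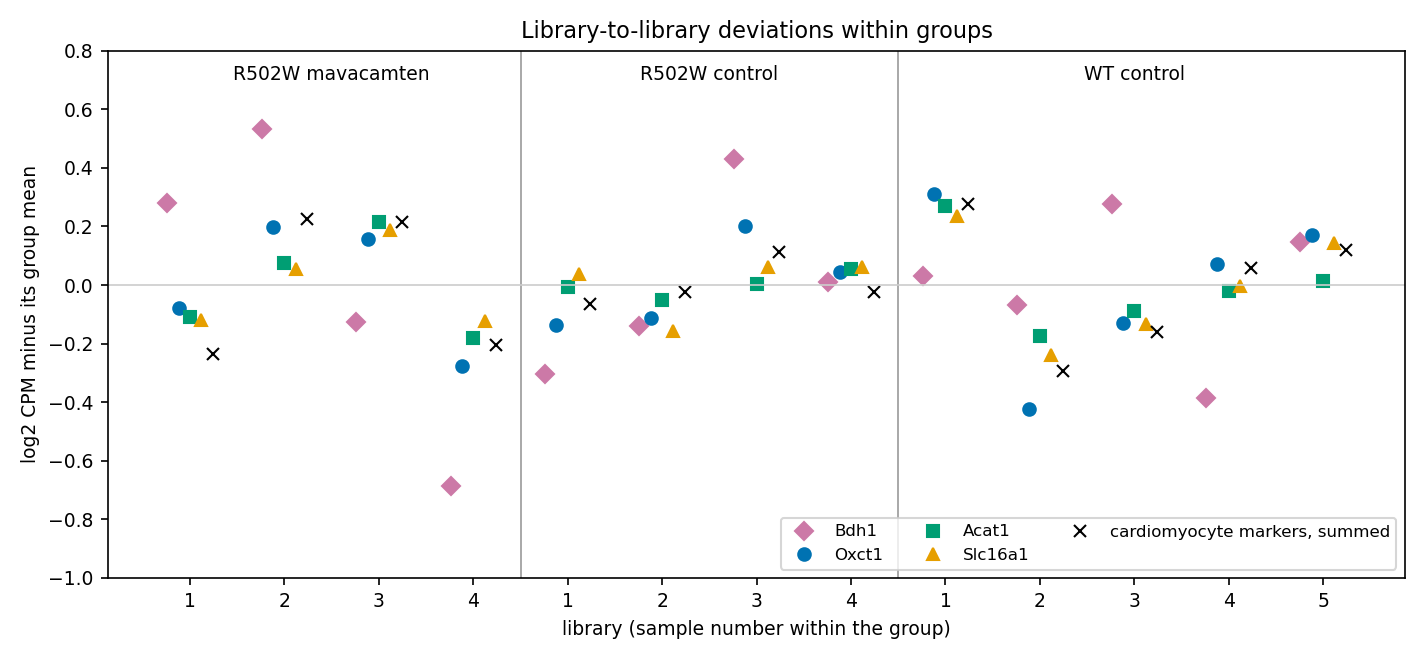
Deviation of each library from its own group mean in log2 CPM (vertical axis) for the 4 genes and for the sum of 8 cardiomyocyte markers; libraries run along the horizontal axis by group and sample number. Bdh1 ranges from -0.685 to 0.533 in R502W mavacamten, and in WT control the other 3 genes and the cardiomyocyte sum share 1 order of libraries.

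The cell type markers also differed between the groups. The cardiomyocyte sum ranged from 60910 to 68910 CPM in R502W control and from 39710 to 58950 CPM in WT control, without overlap. Of its 8 genes 2 rose (Ttn and Ryr2, with exonic lengths of 116825 and 28790 bases). The others did not pass and went both ways, with log2 fold changes of 0.50 for Myh6, 0.35 for Actc1 and 0.24 for Actn2. Those of Tnnt2, Pln and Tnni3 were -0.10, -0.19 and -0.32. Myh6 alone averaged 33180 CPM in R502W control and 23500 CPM in WT control. In R502W mavacamten the cardiomyocyte sum ranged from 55650 to 76460 CPM, which overlapped WT control, and 3 of the 8 rose over WT control (Myh6, Ttn and Ryr2). The endothelial sum ranged from 743.4 to 876.2 CPM in R502W control and from 499.8 to 661.0 CPM in WT control, again without overlap, and 1 of its 5 genes rose (Kdr). None of the 5 macrophage, 5 atrial, 6 fat cell or 6 erythroid markers changed, and 1 of 5 fibroblast markers rose (Col1a1). Of the 3 airway genes 2 were tested and both fell in R502W control against WT control hearts (Scgb1a1, edgeR adjusted p = 0.0353, and Cyp2f2, edgeR adjusted p = 0.0384). The airway sum ranged from 0.281 to 1.45 CPM in R502W control and from 1.39 to 556.4 CPM in WT control, with the highest value in WT control replicate 3. The part of these markers in the higher Bdh1 and Slc16a1 levels was not tested.

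The genes whose log2 CPM was most like that of each member over the 13 libraries were looked up among 13696 genes, by Pearson correlation, as a measure of likeness only. For Bdh1 they were Notch4 (0.962), Col4a2 (0.951) and Col4a1 (0.944), and with group means removed these values were 0.878, 0.841 and 0.808. For Oxct1 they were Plekhb2 (0.970), Smyd1 (0.967) and Fhod3 (0.962), with 0.962, 0.961 and 0.973 inside groups. For Acat1 they were Pln (0.941), Immt (0.940) and Lrrc39 (0.932), with 0.947, 0.949 and 0.961 inside groups. Camta1 (0.962), Cluh (0.960) and Dysf (0.956) were nearest to Slc16a1, with 0.900, 0.943 and 0.873 inside groups. All these genes were read from the same libraries, which differed in depth and tissue content. The part of those differences in the correlations was not tested.

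The surrounding pathway was described with 6 lists holding 76 genes, of which 67 passed the filter. In R502W control against WT control hearts 3 of the 67 rose and 4 fell, where 8.63% of all genes tested rose and 3.75% fell. In R502W mavacamten against WT control hearts 2 rose and 2 fell, where 5.93% of all genes tested rose and 2.29% fell. The list medians below are log2 fold changes of R502W control over WT control, for which the median over all genes tested was -0.0085.

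None of the tested paralogs of the use enzymes passed. Bdh2, a cytosolic relative of Bdh1, averaged 0.937 CPM in R502W mavacamten, 0.958 CPM in R502W control and 1.59 CPM in WT control hearts. Cytosolic thiolase Acat2 and acetoacetyl-CoA synthetase Aacs, enzymes of lipid synthesis, reached their highest values in libraries rich in fat cell genes. R502W mavacamten replicate 4 held 28.1 CPM of Acat2, R502W control replicate 1 held 20.3 CPM and WT control replicate 3 held 23.4 CPM, and these had the highest fat cell sum of their groups (597.1, 403.4 and 642.3 CPM). Reads of Acat2 and of its close copy Acat3 can be confused, and Acat3 was at most 0.428 CPM on average in any group. Oxct2a and Oxct2b, testis relatives of Oxct1, had no counts in any library. The receptor gene Hcar2 averaged 1.33, 0.695 and 1.30 CPM in R502W mavacamten, R502W control and WT control hearts. In R502W control over WT control the log2 fold changes of Bdh2, Acat2, Aacs and Hcar2 were -0.74 ± 0.45, -0.51 ± 0.54, -0.45 ± 0.62 and -0.95 ± 1.11, and none passed (edgeR adjusted p from 0.294 to 0.673).

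Among 12 monocarboxylate transporters and their chaperones 10 were tested and 1 rose, with a median of -0.06. Slc16a6 encodes the transporter MCT7, through which liver cells of zebrafish export ketone bodies. It stood at 12.6, 12.6, 13.6 and 10.1 CPM in R502W mavacamten replicates 1 to 4, at 12.1, 11.3, 14.7 and 9.53 CPM in R502W control replicates 1 to 4, and at 7.70, 6.12, 6.88, 8.81 and 7.56 CPM in WT control replicates 1 to 5. No R502W library overlapped a WT library. Gaps in this direction were found for 12.3% of all genes in R502W control and 8.54% in R502W mavacamten, each against WT control. The log2 fold change was 0.68 ± 0.14 in R502W control (edgeR adjusted p = 0.00844) and 0.72 ± 0.14 in R502W mavacamten (edgeR adjusted p = 0.012), each over WT control and each kept with any 1 library left out. Without the libraries low in Bmp10 both calls ended, and without those high in Adipoq the first did (0.53). Both also ended with a replicate block in the fit and the length trend removed (0.63, edgeR adjusted p = 0.0542, and 0.68, edgeR adjusted p = 0.0744). The replicate block alone ended the second (0.71, edgeR adjusted p = 0.0568).

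The other carriers did not pass in R502W control over WT control. Bsg, the chaperone that brings MCT1 to the membrane, had 786 ± 63.6 CPM in R502W control (SD, n = 4) and 939 ± 115 CPM in WT control hearts (n = 5), or -0.26 ± 0.11 on the log2 scale (edgeR adjusted p = 0.149). Emb, a second chaperone, had -1.15 ± 0.36 (edgeR adjusted p = 0.0525), with its highest level of 12.8 CPM in WT control replicate 2. It passed with DESeq2 (adjusted p = 0.0113), with a filter at a mean of 1 CPM (edgeR adjusted p = 0.0478), with upper quartile scaling (0.0479), and without R502W mavacamten replicate 3 (0.0334) or WT control replicate 1 (0.0233). With 1 library left out the Emb value ran from -1.37 to -0.92, with edgeR adjusted p-values up to 0.143. Over the other settings it ran from -1.36 to -0.62. The lactate exporter Slc16a3 (MCT4) averaged 2.22, 2.79 and 2.88 CPM in R502W mavacamten, R502W control and WT control hearts. Slc16a7 (MCT2), a high-affinity carrier, averaged 9.36, 10.3 and 11.1 CPM in the same order. Slc16a4, Slc16a8, Slc16a11, Slc16a12 and Slc16a13 had edgeR adjusted p-values from 0.0758 to 0.851. Of these Slc16a11 (-2.14 ± 0.75) passed with DESeq2 (adjusted p = 0.0177). It stood at 4.86 and 5.8 CPM in WT control replicates 2 and 3. WT control replicates 1, 4 and 5 held 0.66, 0.68 and 0.76 CPM, and R502W control libraries held 0.39 to 0.78 CPM. Apart from single left-out libraries, its value ran from -2.25 to -0.48 over the settings.

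The steps that meet the ketone pathway are set beside all genes tested, of which 8.63% rose and 3.75% fell in R502W control against WT control. None of 16 genes of lactate and pyruvate entry passed (median -0.08), with log2 fold changes from -0.48 for Pdk3 to 0.29 for Pdk1. Of 17 genes of the tricarboxylic acid cycle 1 fell (median -0.13). It was Idh3g, a subunit of the NAD-dependent isocitrate dehydrogenase, at 384 ± 10.2 CPM in R502W control (SD, n = 4) and 468 ± 29.3 CPM in WT control hearts (n = 5), with -0.29 ± 0.08 (edgeR adjusted p = 0.0341). The call was lost without R502W control replicate 1, 2, 3 or 4 or WT control replicate 4 and with each library's trend with gene length removed. All R502W control libraries lay below all WT control libraries for Idh3b, Idh3g, Suclg1, Sdhb, Sdhc, Fh1 and Mdh2. The ranges overlapped for the other cycle genes, and gaps in this direction were found for 5.45% of all genes. The succinyl-CoA synthetase genes, which use the same succinyl-CoA as Oxct1, did not pass, with -0.24 ± 0.09 for Suclg1, -0.13 ± 0.10 for Suclg2 and -0.12 ± 0.09 for Sucla2. Of 8 genes of thiolases and the end of fat oxidation 1 fell (median -0.23). It was Acaa2, the mitochondrial 3-ketoacyl-CoA thiolase, at 477.8, 628.9, 752.1 and 647.0 CPM in R502W mavacamten replicates 1 to 4, 577.8, 514.7, 556.1 and 593.1 CPM in R502W control replicates 1 to 4, and 981.5, 753.7, 802.9, 857.8 and 846.8 CPM in WT control replicates 1 to 5.

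All 8 R502W libraries held less Acaa2 than all 5 WT libraries. Gaps in this direction were found for 5.45% of all genes in R502W control and 3.79% in R502W mavacamten, each against WT control. The log2 fold change was -0.60 ± 0.12 in R502W control (edgeR adjusted p = 0.00685), kept with any 1 library left out but not with the length trend removed (-0.46). In R502W mavacamten over WT control it was -0.44 ± 0.12 (edgeR adjusted p = 0.0392), and 10 of the 13 libraries ended that call when left out. Acaa2 and Acat1 are both mitochondrial thiolases, and Acat1 had -0.06 ± 0.10 in the same comparison.

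Among 12 regulators tied to ketone enzyme genes 10 were tested and 2 rose in R502W control hearts, with a median of 0.44. Ppargc1b, a coactivator of nuclear receptors that drive mitochondrial genes, averaged 26.4 ± 1.73 CPM in R502W mavacamten (SD, n = 4), 25.8 ± 4.10 CPM in R502W control (n = 4) and 11.1 ± 3.99 CPM in WT control hearts (n = 5). Its log2 fold change over WT control was 1.25 ± 0.23 in treated (edgeR adjusted p = 0.00923) and 1.22 ± 0.23 in untreated R502W hearts (edgeR adjusted p = 0.00534), kept with any 1 library left out but not without the libraries low in Bmp10. Esrrb, an orphan nuclear receptor, had 28.9 ± 3.32 CPM in R502W control (SD, n = 4) and 20.5 ± 2.61 CPM in WT control hearts (n = 5), or 0.50 ± 0.12 on the log2 scale (edgeR adjusted p = 0.0183). The Esrrb call ended without R502W control replicate 3 (0.44) and without the libraries low in Bmp10 (0.53, edgeR adjusted p = 0.0746). It also ended with a replicate block in the fit (0.46, edgeR adjusted p = 0.0629). With that block and the length trend removed the value was 0.38 (edgeR adjusted p = 0.107). Ppara, the fatty acid receptor that drives genes of fat oxidation, had 22.7, 29.7, 46.5 and 30.1 CPM in R502W mavacamten replicates 1 to 4, 36.4, 27.0, 36.0 and 28.0 CPM in R502W control replicates 1 to 4, and 15.98, 2.10, 20.2, 15.95 and 17.5 CPM in WT control replicates 1 to 5. Its log2 fold change in R502W control over WT control, 1.15 ± 0.40, did not pass (edgeR adjusted p = 0.0755) until WT control replicate 2 was left out (0.84, adjusted p = 0.0118) or the libraries high in Adipoq were (0.85, adjusted p = 0.0316). Ppara, Ppargc1a, Pdk1, Pdk3, the succinyl-CoA synthetase genes and the uncalled cycle genes named for their ranges were picked after their values were seen. Ppargc1a had 0.51 ± 0.22 (edgeR adjusted p = 0.148).

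**Figure D4:**
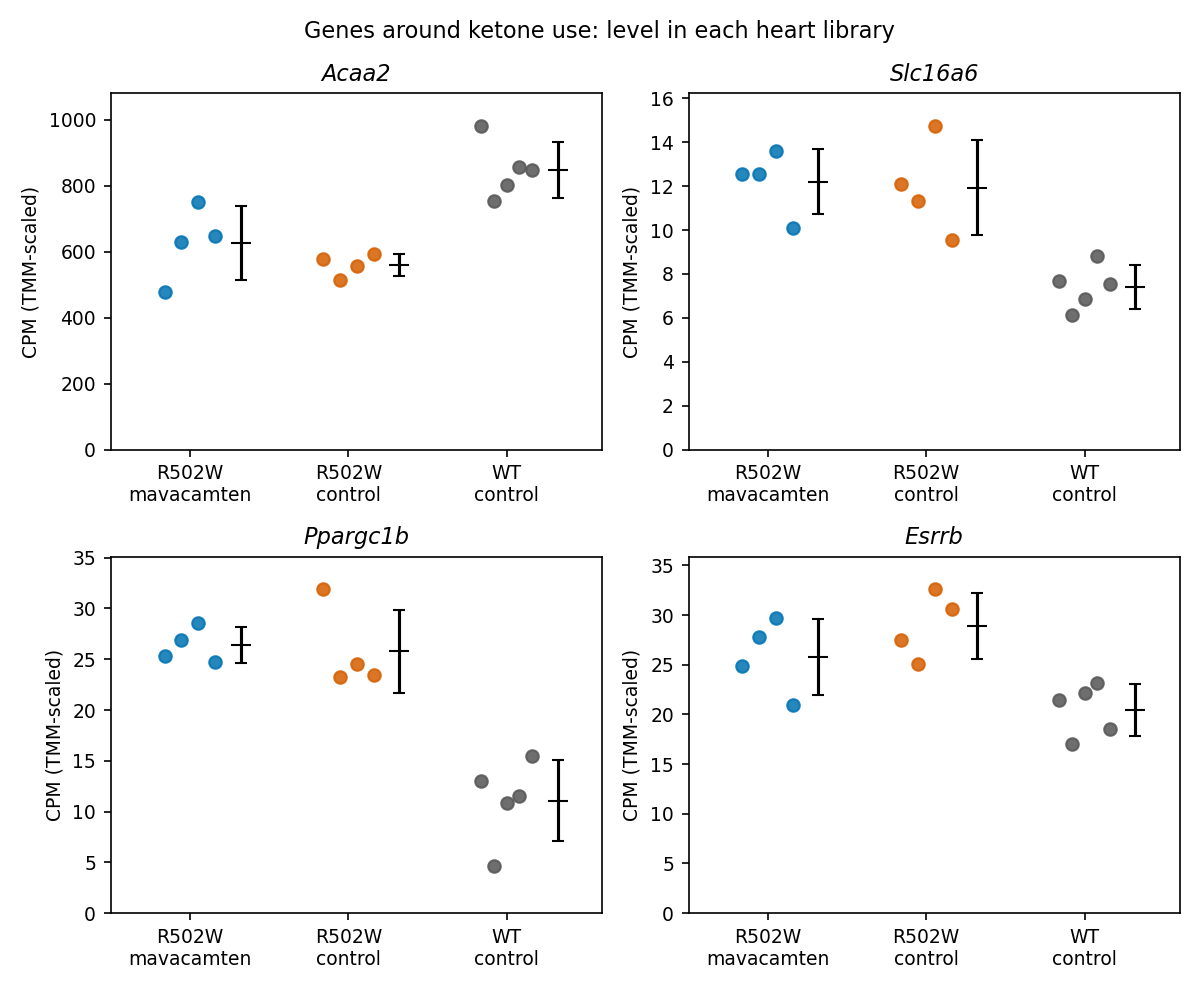
Level in CPM on TMM-scaled library sizes (vertical axes from 0) of 4 genes around ketone use in the 3 groups; each point is 1 library and the bar beside it is the mean with its SD. R502W control libraries lie below all WT control libraries for Acaa2 and above them for Slc16a6, Ppargc1b and Esrrb.

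The treatment comparison asked whether mavacamten moved these genes within R502W hearts, and it shares the R502W control libraries with the genotype comparison. None of the 4 members and none of the 67 list genes passed. The groups overlapped for each of the 4 members, and groups without overlap were found for 2.87% of all genes (1.29% higher and 1.58% lower). EdgeR called 0 of 15000 genes, with 525 at an unadjusted p under 0.05, and DESeq2 called 6. The list medians lay between 0.00159 and 0.22, beside 0.0036 over all genes tested. Acaa2 differed by 0.16 ± 0.12 on the log2 scale in R502W mavacamten over R502W control (edgeR adjusted p = 1.00).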

How the data were processed

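RNA from whole mouse hearts was sequenced as poly(A) libraries, and 13 libraries in 3 groups were grouped by their labels. The authors deposited estimated counts (expected counts) per Ensembl gene; RSEM, cutadapt, FastQC, DESeq2 and GRCm38 are named in the submitters' processing notes, while versions, the aligner and the strand setting are not given in the sources used here. Of the values 5.8% were fractional, and counts were rounded. Genes were filtered with filterByExpr (minimum count 10, minimum total 15), leaving 15000 of 55471, scaled by TMM and fitted in edgeR 4.0.16 (R 4.3.3, limma 3.58.1) with 1 quasi-likelihood model over all groups, with Benjamini-Hochberg adjustment over all genes. Intervals are 95%. Lengths come from GENCODE exons on GRCm38. Symbols were found for 55144 genes. Single values were also tested by two-sided exact permutation on log2 CPM (prior count 2). DESeq2 1.42.0, other scalings and filters, left-out libraries, removal of each library's length trend (lowess span 0.3) and a replicate block were alternatives. The rule for named genes took the 4 members, the filtered genes of the synthesis and transporter lists, called genes of the other lists (at most 4 a comparison), the 3 genes most correlated with each member (mean of at least 1 CPM) and markers that moved with a result. The members and lists were chosen with earlier results of these data known. Some listed genes are counted in the lists but not reported here. Protein sequences were not used here.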

Additional observations from a re-analysis of the deposited data

Results flagged for a closer look

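In 8 of 72 sets of 4 or 5 libraries tested, 1 library stood far from the others of its group. Chance gives about 1 in 20 for independent sets of normally distributed values. These sets share the same 13 libraries, so no excess over that share is read from them. Slc16a1 was 190.8 CPM in R502W control replicate 2, with the others at 218.2 to 222.1 CPM. Acat2 was 28.1 CPM in R502W mavacamten replicate 4 (others 5.92 to 8.27 CPM) and 20.3 CPM in R502W control replicate 1 (others 4.90 to 6.73 CPM), both libraries rich in fat cell markers. Hcar2 was 2.35 CPM in R502W control replicate 1, with the others at 0.0563 to 0.207 CPM. Slc16a3 was 3.55 CPM in R502W mavacamten replicate 1, with the others at 1.70 to 1.87 CPM. Slc16a12 was 2.22 CPM in WT control replicate 2, with the others at 3.62 to 4.10 CPM. Ppargc1b was 31.9 CPM in R502W control replicate 1, with the others at 23.3 to 24.5 CPM. Ppara was 2.10 CPM in WT control replicate 2, with the others at 15.95 to 20.2 CPM. The part of tissue content in these values was not tested.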

How the results depend on the processing

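Bdh1 in R502W control over WT control kept its call under every setting run. In R502W mavacamten over WT control Bdh1 missed the threshold with only the 2 groups (0.97), with the replicate block and length trend removed (1.03) and without libraries low in Bmp10 (1.12), and ranged from 0.79 to 1.15 with 1 library left out. Slc16a1 in R502W control over WT control missed it with the replicate block and length trend removed (0.46), without libraries high in Adipoq (0.29) and without those low in Bmp10 (0.37), with 0.36 to 0.49 over left-out libraries. In R502W mavacamten over WT control Slc16a1 missed it with the length trend removed (0.37), no filter (0.37), 2 groups only (0.36), the replicate block (0.43), that block with length (0.41), RLE (0.36), upper quartile (0.33), without Adipoq-high (0.28) and without Bmp10-low libraries (0.27), with 0.30 to 0.43 over left-out libraries. Acat1, uncalled, in R502W mavacamten over WT control turned to -0.019 (upper quartile), -0.018 (Adipoq) and -0.076 (Bmp10), with -0.055 to 0.093 over left-out libraries. Oxct1 in R502W mavacamten over R502W control turned to 0.0065 (Adipoq), with -0.088 to 0.052 over left-out libraries.

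Genes called in R502W control over WT control numbered 963 with the replicate block, 631 with block and length, 1145 (Adipoq), 404 (Bmp10) and 866 to 1870 over left-out libraries, beside 1856. In R502W mavacamten over WT control they numbered 631 (length), 740 (no filter), 216 (2 groups), 349 (replicate block), 165 (block and length), 653 (Adipoq), 86 (Bmp10) and 359 to 1213, beside 1232. DESeq2 called 6 genes for treatment. Listed genes called, 7 for R502W control, became 16 (DESeq2), 12 (mean of at least 1 CPM), 2 (block and length), 14 (upper quartile), 2 (Bmp10) and 4 to 11. For R502W mavacamten 4 became 8 (DESeq2), 2 (replicate block), 2 (block and length), 0 (Bmp10) and 2 to 6. Among uncalled genes of R502W control over WT control, signs turned for Aacs (0.16, Adipoq; -0.93 to 0.0099), Slc16a13 (0.0075 length, 0.011 block and length, 0.12 Adipoq, 0.14 Bmp10; -0.17 to 0.082), Slc16a3 (0.18 Adipoq, 0.097 Bmp10; -0.31 to 0.082) and Slc16a8 (-0.014 to 0.23). The cause was not tested.

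Replicate numbers did not in general pair the libraries. Of 12 same-numbered pairs 1 correlated over 0.1 (replicates 3 of R502W control and R502W mavacamten, 0.253). Best partners were searched from WT control to the R502W groups and from R502W control to R502W mavacamten, and 0 had their own number. In the reverse direction R502W mavacamten replicate 3 correlated best with R502W control replicate 3.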

Other observations

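Of the summed CPM of the 4 genes, Bdh1 made up 6.05 ± 1.70% in R502W mavacamten, 6.86 ± 0.998% in R502W control and 3.59 ± 0.803% in WT control hearts (SD, n = 4, 4 and 5). The share of Acat1 was 26.3 ± 1.44%, 24.4 ± 1.71% and 29.6 ± 1.89% in the same order of groups, and that of Oxct1 was 55.4 ± 0.809%, 56.1 ± 1.42% and 56.0 ± 2.62%. Slc16a1 made up 12.3 ± 0.91%, 12.7 ± 0.863% and 10.8 ± 0.373%. The R502W control and WT control ranges did not overlap for Bdh1 (5.88 to 8.25% and 2.66 to 4.58%), Acat1 (21.9 to 25.8% and 27.5 to 32.6%) or Slc16a1 (11.9 to 13.8% and 10.5 to 11.4%), and they overlapped for Oxct1 (54.5 to 58.0% and 51.8 to 58.0%). Each share divides a gene by the sum of all 4, so a share can fall without a fall of its gene. That sum averaged 1688 ± 146 CPM in R502W control and 1452 ± 222 CPM in WT control hearts (SD, n = 4 and 5). The Acat1 levels in CPM overlapped between these groups. The shares use the same counts as the comparison of the single genes and were not tested.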
